A study of Mus musculus with 2 samples.

Results

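The proteasome and immunoproteasome subunit genes were examined in CD45+ cells of mouse visceral adipose tissue (VAT). Members were all genes whose symbol is Psma, Psmb, Psmc, Psmd or Psme followed only by digits, which gave 43 of the 27998 genes in the deposited matrices. They comprised 7 standard alpha-ring and 7 standard beta-ring genes of the 20S core, 6 ATPases and 11 non-ATPase subunits of the 19S cap, and 3 assembly factors of that cap that carry Psmd names. The other members were the 3 immunoproteasome genes Psmb8, Psmb9 and Psmb10, the PA28 activator genes Psme1 and Psme2, the activators Psme3 and Psme4, and the tissue-restricted genes Psma8 and Psmb11. Psmb8, Psmb9, Psmb10, Psme1 and Psme2 are called the 5 immunoproteasome-associated genes here, and they were compared with the 34 standard and assembly-factor genes across cell types and between caloric restriction (CR) and obesity.

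The proteasome is the barrel-shaped protease that degrades proteins tagged with ubiquitin in the cytosol and nucleus. Alpha subunits form the outer rings and gate, beta subunits form the inner rings and hold the catalytic sites, and the 19S cap recognises, unfolds and feeds in ubiquitinated substrates. Immune cells, and other cells exposed to interferon-gamma, make catalytic subunits that replace the standard ones during assembly: Psmb8 takes the place of Psmb5, Psmb9 that of Psmb6, and Psmb10 that of Psmb7. This changes the cut sites and yields peptides well suited to loading on MHC class I, and the PA28 cap built from Psme1 and Psme2 opens the core without ubiquitin recognition.

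Live CD45+ cells sorted from perigonadal fat of the CR group and of the obese group were profiled with 10x Genomics v2 3′ chemistry, as 1 library per group. In both groups C57BL/6J male mice, bought at 6 weeks of age and acclimated for 2 weeks, were given weekly antisense oligonucleotide against the LDL receptor at 5 mg/kg and a diet with 60% of energy from fat and 0.3% cholesterol for 24 weeks. CR mice then received 70% of the ad libitum intake of that diet for 2 weeks, whereas obese mice had no restriction. All cells thus came from animals with lowered LDL receptor, so neither group was a lean or untreated reference, and a lean library was not analysed here. The diet label of the CR sample reads as caloric restriction throughout life, which differs from the 2 weeks in the study's methods. The number of mice per library was not given in the sources used here, and no comparison between groups has a replicate check, so no p-value is given and every interval covers counting error only.

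The CR library held 19696476 UMIs in 3562 barcodes and the obese library 42948242 UMIs in 5795 barcodes. After filters on genes, mitochondrial share and highest UMI count, 2987 CR and 5263 obese cells were kept, with a median of 4802 UMIs per CR cell and 6738 per obese cell. Cells were assigned to a type by marker genes, which placed 2652 CR cells (88.8%) and 4705 obese cells (89.4%). Of these, 69 CR and 145 obese cells lay near the limit of the gate, and 135 of 1033 CR and 481 of 2744 obese macrophages lay near a limit between macrophage subtypes. The gates are rebuilt, so cells are named as like a type only by those markers, and they may differ from the study's own clusters. The 28 barcodes that occurred in both libraries (18 among kept cells) were left in, and no doublet caller was run. The fibroblast and endothelial gates went against the CD45+ sort. Ptprc, which encodes CD45, stood at 26.5 CPM in CR and 55.5 CPM in obese fibroblast-gated cells and at 34.4 CPM in CR endothelial-gated cells, whereas it stood at 256 CPM in CR and 210 CPM in obese type 1 dendritic cells (cDC1s).

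Levels are given as CPM, the UMIs of a gene scaled to the total of all UMIs summed over the cells of a gate. A UMI marks the 3′ end of 1 transcript, so CPM is not scaled to gene length, but priming can differ between genes and levels of different genes are compared only as a pattern across cell types. A gene was measured in a comparison when the 2 sides held at least 20 UMIs together and 1 side reached 50 CPM. A fold change is a log2 ratio with 5 CPM added to each side. A gene was called between CR and obese when that ratio was at least 0.5 in size and its 95% interval left out 0, and between cell types when it was at least 1 in size.

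To examine how much of the transcriptome goes to this protease, the share of UMIs from all 43 genes was computed for each gate. Across gated leukocytes the share was 0.822% in CR and 0.750% in obese VAT, pooled over types whose makeup differed between the libraries. cDC1s had 1.06% in CR (95% exact interval 1.05 to 1.08%), and obese cDC1s had 0.976% (0.966 to 0.986%). B cells were at the low end of the leukocytes, with 0.584% in CR and 0.654% in obese VAT, where macrophages of no subtype gate, at 0.637%, were lower still. Erythroid-gated cells had 0.0754% in CR and 0.0993% in obese VAT. These are shares of all UMIs, and totals without haemoglobin genes were not computed for this gate. Fibroblast-gated cells, at 0.635% in CR and 0.598% in obese VAT, lay within the range of the leukocyte types in CR and below all of them in obese VAT.

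With fibroblast-gated cells included, Psmb8, Psmb9 and Psme1 varied more between cell types than the standard genes did, although the range of Psma6 in CR nearly equalled that of Psme1. Over the 11 types with at least 50 cells in both libraries, the median log2 range between the highest and lowest type was 1.13 in CR and 1.01 in obese VAT for the standard alpha ring and 0.89 in CR and 0.62 in obese VAT for the standard beta ring. For the 19S ATPases it was 0.75 in CR and 0.62 in obese VAT, and for the 19S non-ATPase subunits 1.09 in CR and 0.83 in obese VAT. For Psmb8, Psmb9 and Psmb10 the median range was 3.42 in CR and 3.17 in obese VAT. Psme1 had a range of 2.61 in CR and 2.24 in obese VAT, and Psme2 1.60 in CR and 1.05 in obese VAT. The lowest type was the fibroblast gate for Psmb8 and Psme1 in both libraries and for Psmb9 in CR. Among the leukocyte gates of these 11 types in CR, Psmb8 ran between 288 and 1586 CPM and Psme1 between 169 and 751 CPM. Psma6 ran between 162 and 1007 CPM there, a wider log2 spread than either. Psmb10 was the exception in its group, with a range of 1.28 in CR and 1.24 in obese VAT. Psmb10 and Psme2 thus lay among the standard genes in range, below Psmd12 (2.15) and Psmd1 in CR, whose lowest types rested on 4 UMIs for Psmd12 and 18 for Psmd1. Among standard genes, Psma6 (2.60 in CR and 2.00 in obese VAT) had the widest range of the alpha ring and Psmb6 (1.65 in CR and 1.51 in obese VAT) that of the beta ring.

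**Figure D1:**
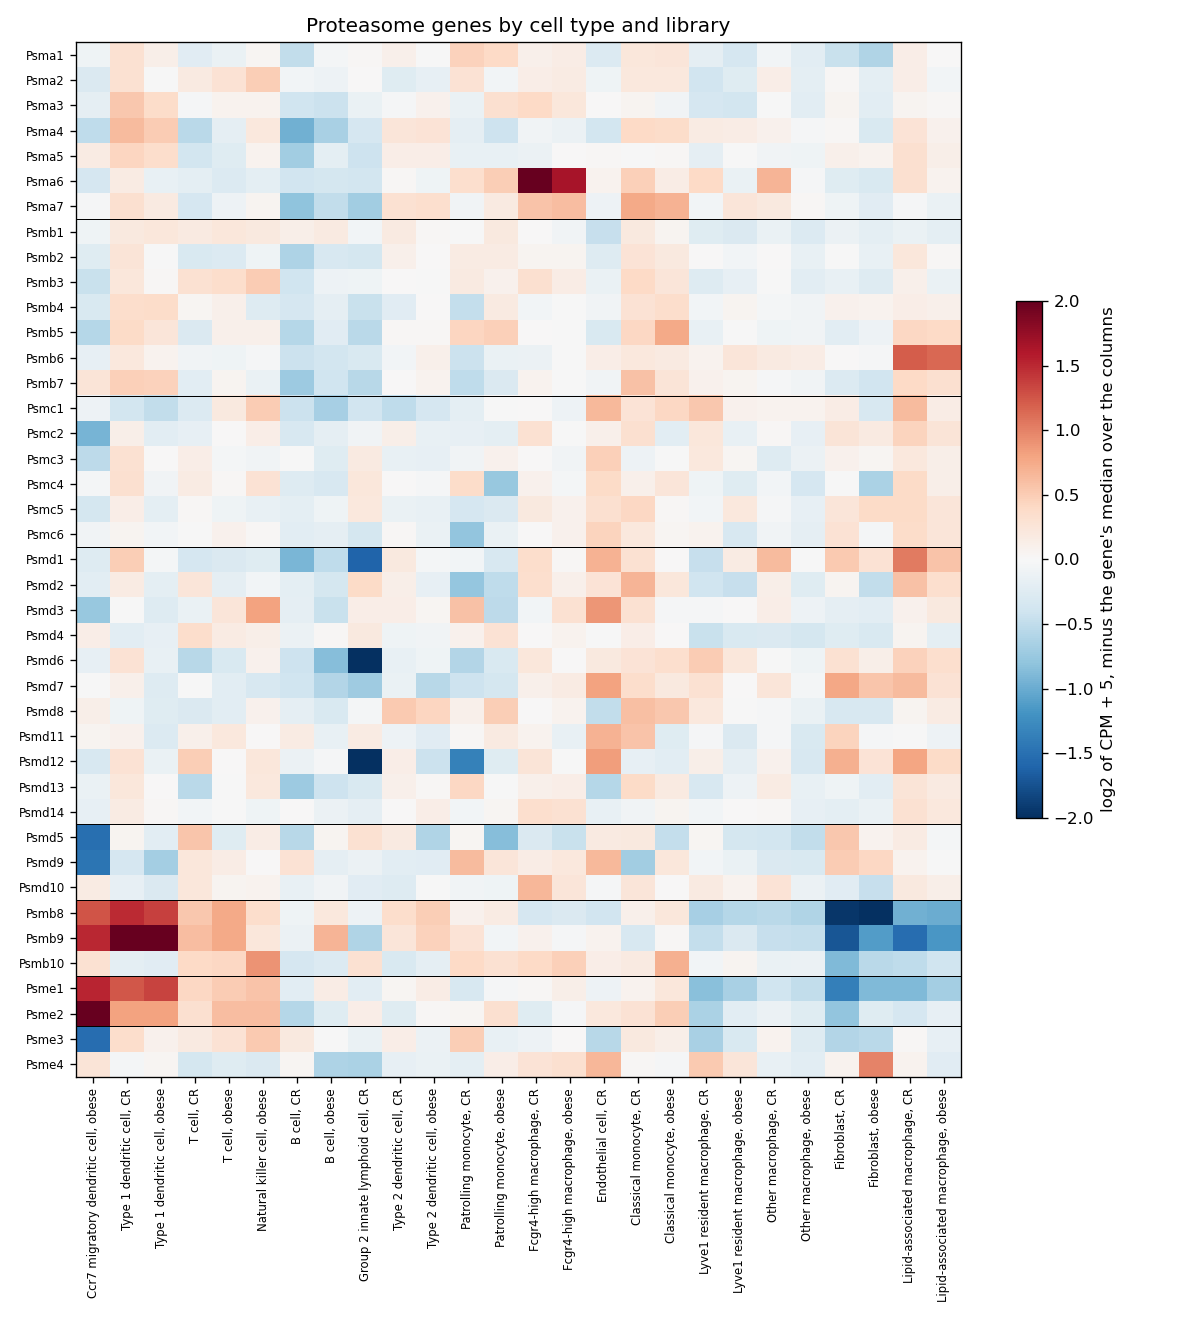
Level of 41 members (rows, by role) in each gated cell type and library (columns, CR left of obese), drawn as log2(CPM + 5) minus the gene's median over 26 columns on a scale cut at 2 on either side. Psmb8, Psmb9 and Psme1 were high in cDC1s and low in fibroblast-gated cells and lipid-associated macrophages, and among standard genes Psma6 stood out in Fcgr4-high macrophages and Psmb6 in lipid-associated macrophages. Psma8 and Psmb11, with at most 59 UMIs in a library, are left out.

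To ask how the balance of transcripts for the 2 forms of the catalytic core differed between cell types, the summed UMIs of Psmb8, Psmb9 and Psmb10 were divided by those of Psmb5, Psmb6 and Psmb7 in the same cells. The ratio ran over more than 2 log2 units between cell types and differed far less between the libraries. cDC1s, which cross-present antigen on MHC class I, had a log2 ratio of 1.64 in CR (1.53 to 1.75), and obese cells had 1.66 (1.60 to 1.72). Since the ratio sets different genes against each other, it is read only as an order of cell types, and 0 is not read as equal transcript numbers. Ccr7 migratory dendritic cells, sampled in sufficient number only in obese VAT, had 1.90 (1.70 to 2.11), an interval that overlapped little with that of obese cDC1s. T cells followed with 1.26 in CR and 1.25 in obese VAT, natural killer cells with 1.02 in obese VAT, and B cells with 0.98 in CR and 1.12 in obese VAT. Type 2 dendritic cells (cDC2s) had 0.80 in CR and 0.87 in obese VAT, well under cDC1s in both libraries.

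The monocyte and macrophage gates spread over the middle and the bottom of this order. Patrolling monocytes had a log2 ratio of 0.85 in CR and 0.65 in obese VAT, and Fcgr4-high macrophages had 0.50 in each library. Classical monocytes had 0.22 in CR and 0.44 in obese VAT. Lyve1 resident macrophages (0.04 in CR and 0.06 in obese VAT) and macrophages of no subtype gate (0.06 in CR and 0.05 in obese VAT) nearly coincided. Lipid-associated macrophages, the Trem2- and Gpnmb-positive cells that collect around dying adipocytes, lay at the bottom with −1.23 in CR (−1.36 to −1.11), beside −1.12 in obese cells (−1.17 to −1.07). Fibroblast-gated cells, at −0.99 in CR and −0.77 in obese VAT, were the next lowest, and in CR their interval overlapped that of lipid-associated macrophages.

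The difference in ratio between CR and obese VAT was small within every type. In the 11 types with enough cells in both, CR minus obese ran between −0.22 and 0.20 log2 units, was below 0 in 8 types, and had an interval that left out 0 in 0 of 11. Pooled cells gave another picture, since the makeup of the libraries differed. Over the 10 leukocyte types present in both, the pooled log2 ratio was 0.55 in CR and 0.19 in obese VAT, but with CR types weighted by their share of obese UMIs the CR value was 0.14. Over all macrophages it was 0.00 in CR and −0.50 in obese VAT pooled, and −0.56 in CR once weighted in the same way. Fcgr4-high macrophages made up 627 of 1033 CR macrophages and 296 of 2744 obese macrophages, and lipid-associated macrophages 149 in CR and 989 in obese VAT.

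**Figure D2:**
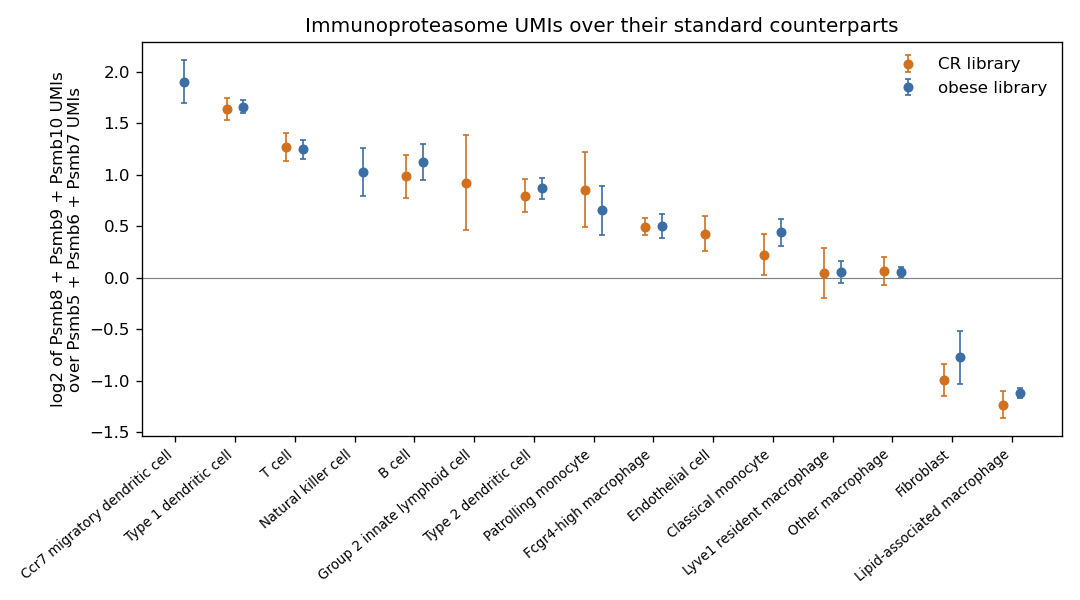
Log2 ratio of summed Psmb8, Psmb9 and Psmb10 UMIs to summed Psmb5, Psmb6 and Psmb7 UMIs in each gated type, with CR left of obese and bars for the 95% exact interval (counting error only). In the 11 types with enough cells in both libraries, CR minus obese runs between −0.22 and 0.20 log2 units. Types run between 1.90 in obese Ccr7 migratory dendritic cells and −1.23 in CR lipid-associated macrophages.

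The 3 catalytic pairs contributed unequally to these ratios. The log2 ratio of Psmb8 to Psmb5 was 2.62 in CR and 2.64 in obese cDC1s, 2.35 in CR and 2.17 in obese T cells, and 0.12 in CR (−0.08 to 0.32) and 0.09 in obese lipid-associated macrophages. Psmb9 against Psmb6 spread more. It was 1.13 in CR and 1.27 in obese cDC1s, 0.01 in CR and 0.17 in obese T cells, −1.34 in CR and −1.33 in obese macrophages of no subtype, and −3.53 in CR and −3.08 in obese lipid-associated macrophages. Psmb10 against Psmb7 followed an order of its own, with 0.83 in CR and 0.57 in obese T cells but −0.48 in CR and −0.49 in obese cDC1s. cDC1s were therefore above T cells for the Psmb8 and Psmb9 pairs and below them for the Psmb10 pair. Within the last 600 bases of its transcripts, 24.2% of the 98-base words of Psmb5 also occur in Gm3375, which is not among the genes of the matrices, so ratios that contain Psmb5 are uncertain to that extent.

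Psmb8 encodes beta5i, the chymotrypsin-like site of the immunoproteasome. In dendritic cells it stood at 1586 CPM in CR and 1457 CPM in obese cDC1s, 717 CPM in CR and 794 CPM in obese cDC2s, and 1360.5 CPM in obese Ccr7 migratory cells. In lymphoid cells it stood at 820.0 CPM in CR and 952 CPM in obese T cells, 532 CPM in CR and 650.1 CPM in obese B cells, 527 CPM in CR group 2 innate lymphoid cells, and 719 CPM in obese natural killer cells. Monocytes held 608 CPM in CR and 657 CPM in obese classical cells, and 596 CPM in CR and 634 CPM in obese patrolling cells. Dendritic cells and T cells thus led, and monocytes were close to B cells. Macrophages were lower, with 445 CPM in CR and 458 CPM in obese Fcgr4-high cells, 352 CPM in CR and 379 CPM in obese Lyve1 cells, 385 CPM in CR and 369 CPM in obese cells of no subtype, and 288 CPM in CR and 281 CPM in obese lipid-associated cells. Outside the leukocytes it was 433 CPM in CR endothelial-gated cells and 143 CPM in CR and 136 CPM in obese fibroblast-gated cells.

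Psmb9, the beta1i subunit that replaces the caspase-like site, had the steepest fall-off away from cDC1s. cDC1s held 673 CPM in CR and 674 CPM in obese VAT, cDC2s 196 CPM in CR and 227 CPM in obese VAT, and obese Ccr7 migratory cells 478 CPM. T cells held 255 CPM in CR and 281 CPM in obese VAT, B cells 152 CPM in CR and 266 CPM in obese VAT, CR group 2 innate lymphoid cells 107 CPM, and obese natural killer cells 193 CPM. Only the T and B cell gates among lymphoid cells had enough cells in both libraries, and the libraries stood farther apart in B cells. Patrolling monocytes held 201 CPM in CR and 158 CPM in obese VAT, classical monocytes 130.1 CPM in CR and 167 CPM in obese VAT, and Fcgr4-high macrophages 175 CPM in CR and 162 CPM in obese VAT. Lyve1 macrophages held 117 CPM in CR and 133 CPM in obese VAT, macrophages of no subtype 119 CPM in CR and 117 CPM in obese VAT, and lipid-associated macrophages 53.7 CPM in CR and 70.5 CPM in obese VAT. Lipid-associated macrophages were therefore as low as fibroblast-gated cells, which held 46.8 CPM in CR and 73.5 CPM in obese VAT, and well below the 173 CPM of CR endothelial-gated cells.

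Psmb10, the beta2i subunit with trypsin-like activity, stayed within a narrow band. It was highest in obese natural killer cells at 324 CPM, and stood at 228 CPM in CR and 229.9 CPM in obese T cells and at 229 CPM in CR and 213 CPM in obese patrolling monocytes. Fcgr4-high macrophages had 228 CPM in CR and 242 CPM in obese VAT, and classical monocytes 195 CPM in CR and 284 CPM in obese VAT. cDC1s, the peak of Psmb8 and Psmb9, had only 150.1 CPM in CR and 147 CPM in obese VAT, close to the 138 CPM in CR and 152 CPM in obese cDC2s. The remaining leukocyte gates ran between 120.3 and 213 CPM, with lipid-associated macrophages at 120.3 CPM in CR and 129 CPM in obese VAT. Fibroblast-gated cells had 91.5 CPM in CR and 118 CPM in obese VAT.

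Psme1 and Psme2 encode PA28alpha and PA28beta, which assemble into 1 mixed ring. Psme1 stood at 751 CPM in CR and 812 CPM in obese cDC1s, 917 CPM in obese Ccr7 migratory cells, 419.7 CPM in CR and 451 CPM in obese T cells, and 468 CPM in obese natural killer cells. It was 323 CPM in CR and 349 CPM in obese cDC2s, 270.4 CPM in CR and 349.9 CPM in obese B cells, and 329 CPM in CR and 368 CPM in obese classical monocytes. The dendritic and T cell gates that led for Psmb8 were high for Psme1 too, but Ccr7 migratory cells stood above cDC1s, and cDC2s stood no higher than classical monocytes. Macrophage gates ran between 169 CPM in CR lipid-associated cells and 343 CPM in obese Fcgr4-high cells, and fibroblast-gated cells were at 118 CPM in CR and 168 CPM in obese VAT. Psme2 differed in its peak, which was the obese Ccr7 migratory gate at 1832 CPM. Other types were between 184 CPM in CR fibroblast-gated cells and 568 CPM in CR cDC1s, with 567 CPM in obese cDC1s. Lipid-associated macrophages were not low for Psme2, with 256 CPM in CR and 288 CPM in obese VAT beside 297 CPM in CR and 272 CPM in obese macrophages of no subtype. Within the last 600 bases of its transcripts, 44.0% of the 98-base words of Psme2 also occur in Psme2b, for which 412 CR and 922 obese UMIs were counted, so Psme2 levels are uncertain to that extent.

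**Figure D3:**
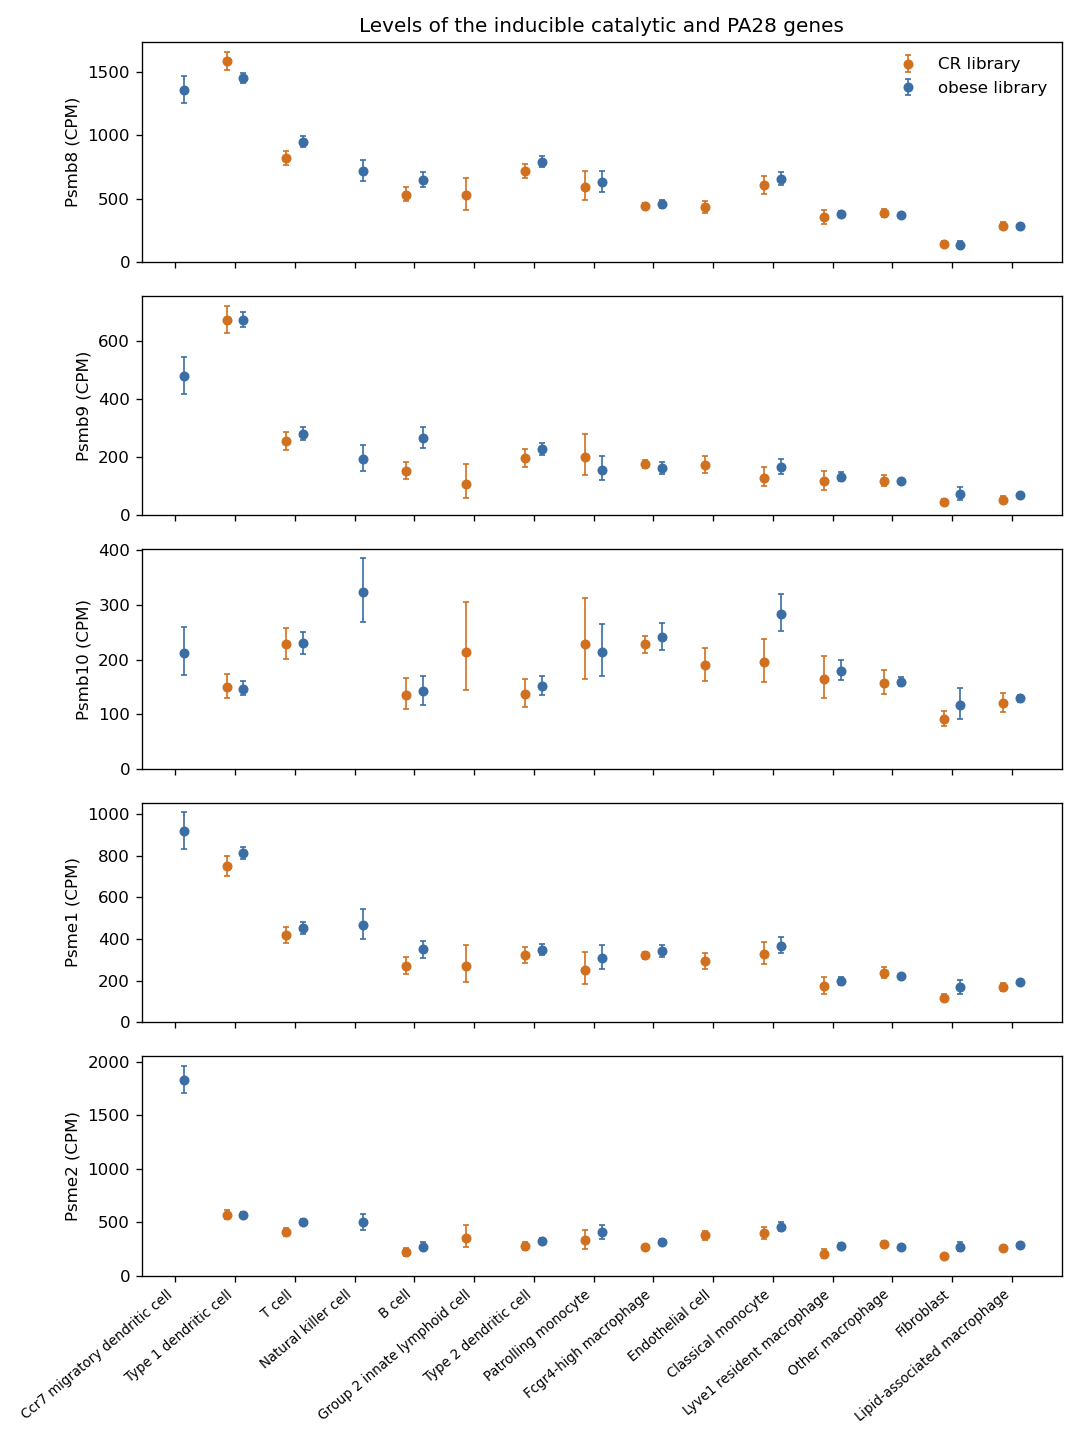
CPM of Psmb8, Psmb9, Psmb10, Psme1 and Psme2 (panels) in each gated type, CR left of obese, with 95% exact Poisson intervals for counting error. cDC1s were highest for Psmb9 (673 CPM in CR and 674 CPM in obese VAT), Ccr7 migratory cells for Psme2 (1832 CPM in obese VAT), and Psmb10 lay between 91.5 CPM in CR fibroblast-gated cells and 324 CPM in obese natural killer cells.

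Among the inducible members, Psmb8 lies close to Psmb9 and Psme1 close to Psme2, and promoter sequences were examined next to the levels. Psmb8 and Psmb9 are in the MHC region of chromosome 17 beside Tap1, a subunit of the peptide transporter that carries proteasome products into the endoplasmic reticulum. The start of Psmb9 lies 211 bases from that of Tap1 on the opposite strand, and Psmb8 begins 495 bases beyond the end of Tap1 (GENCODE vM21, mm10). Psme1 and Psme2 face each other tail to tail on chromosome 14 with 5911 bases between them. Windows of 250 bases before the start were matched in RefSeq (GRCm38.p6) for 36 of the 43 members, and the whole window was searched on both strands for each. The interferon-stimulated response element, searched as TTTC, any 2 bases and TTTC again, was found in 3 of the 36 (Psmb3, Psmd4 and Psmd9), beside 2.98% of 32851 promoters in the table. A match is a description of letters and was not tested as a binding site.

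To see where the widest of these differences lay, pairs of cell types were compared within each library. cDC1s against cDC2s gave 4 members called higher in CR (Psmb8, Psmb9, Psme1 and Psme2), where 5.24% of all measured genes were called higher, and 2 in obese VAT (Psmb9 and Psme1), where 4.21% were. No member was called lower, beside 10.0% of genes in CR and 9.33% in obese VAT. For Psmb9 the log2 ratio was 1.76 in CR and 1.55 in obese VAT, for Psme1 1.20 in CR and 1.21 in obese VAT, for Psmb8 1.14 in CR and 0.87 in obese VAT, and for Psme2 1.04 in CR and 0.78 in obese VAT. The CR call of Psme2 was lost under 4 of 13 alternatives, with 0.40 at the least, and those of Psmb8 and Psme1 after thinning (0.94 for Psmb8). Psmb10, at 0.12 in CR and −0.05 in obese VAT, had intervals that included 0. The median of the standard genes was 0.21 in CR and −0.01 in obese VAT, beside −0.03 in CR and −0.09 in obese VAT over all measured genes. Against all macrophages, cDC1s had 4 members called higher in CR (background 9.01%) and 3 in obese VAT (8.63%), led by Psmb9 at 2.28 in CR and 2.71 in obese VAT and Psmb8 at 2.00 in CR and 2.11 in obese VAT. Psma6 was called lower there in CR (−1.49, background 18.6%), and 0 members were in obese VAT (18.5%).

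T cells against all macrophages gave 1 member called higher in CR, Psmb8 (background 15.5%), and 3 in obese VAT, Psmb8, Psmb9 and Psme1 (17.3%). As a share of the members, both counts were below the background. Psma6 was called lower in CR T cells (−1.85, background 19.7%), and 0 members were in obese VAT (19.3%). T cells against B cells gave 0 members called in either direction in either library, beside 12.8% of measured genes called higher in CR and 10.5% in obese VAT, and 9.06% called lower in CR and 8.54% in obese VAT. Fibroblast-gated cells against all gated leukocytes had 4 members called lower in CR, Psma6, Psmb8, Psmb9 and Psme1 (background 18.7%), and 2 in obese VAT, Psmb8 and Psmb9 (15.4%). For Psmb8 the log2 ratio was −2.10 in CR and −2.0 in obese VAT, and for Psmb9 it was −2.08 in CR and −1.33 in obese VAT. No member was called higher there, beside 23.1% of genes in CR and 24.9% in obese VAT. The counts by themselves were below the background in both libraries, and the members concerned were mostly the inducible ones.

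Psmb6 encodes beta1, the standard caspase-like subunit that Psmb9 replaces, and it had a pattern of its own among the standard genes. In lipid-associated macrophages it stood at 622 CPM in CR and 595 CPM in obese VAT, against 301 CPM in CR and 294 CPM in obese macrophages of no subtype. In the other gates apart from erythroid cells (38.9 CPM in CR and 39.3 CPM in obese VAT) it lay between 195 and 315 CPM, with 279.6 CPM in CR and 315 CPM in obese Lyve1 cells and 245 CPM in CR and 264 CPM in obese Fcgr4-high cells. No other gate came near the lipid-associated cells. The log2 ratio of lipid-associated macrophages to macrophages of no subtype was 1.03 in CR (0.88 to 1.22), beside 1.01 in obese cells (0.95 to 1.09). Psmb6 was the 1 member called higher in each library, beside 3.48% of measured genes in CR and 3.46% in obese VAT. These ratios sat at the limit of 1, and the call was kept under 9 of 13 alternatives in CR and 7 of 13 in obese VAT, with values between 0.86 and 1.15 in CR and between 0.87 and 1.10 in obese VAT. Psmb9 was called lower in CR at −1.08 (background 3.44%) and had −0.69 in obese VAT, where 0 members were called lower beside 3.03% of genes. As a share of the members, 1 call was below the background in each library. The standard genes as a group also leaned upward, with a median of 0.31 in CR and 0.30 in obese VAT beside 0.05 in CR and 0.08 in obese VAT for all measured genes.

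The other standard catalytic genes differed less between macrophage gates. Psmb5, the standard chymotrypsin-like subunit, stood at 265 CPM in CR and 263 CPM in obese lipid-associated macrophages, against 185 CPM in CR and 187 CPM in obese macrophages of no subtype. Over the remaining types it ran between 132 CPM in CR B cells and 336 CPM in obese classical monocytes, with 132 CPM also in obese Ccr7 migratory cells. Psmb7, the standard trypsin-like subunit, stood at 199 CPM in CR and 187 CPM in obese lipid-associated macrophages, against 146 CPM in CR and 141 CPM in obese macrophages of no subtype. Over the remaining types it ran between 88.2 CPM in CR B cells and 226 CPM in CR classical monocytes. Neither gene was called in lipid-associated macrophages, where Psmb5 had log2 ratios of 0.50 in CR and 0.48 in obese VAT and Psmb7 0.44 in CR and 0.39 in obese VAT.

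The promoters of Psmb6 and Psmb5 are shown because both carry TGACNNNGC, the core of the antioxidant response element used by Nrf1 and Nrf2, the factors known to drive proteasome genes. It was found in 5 of the 36 members (Psmb5, Psmb6, Psmc6, Psmd12 and Psmd9), beside 10.2% of all promoters, so these letters were not rare in either set. The Psmb6 window is chr11:70525107-70525356 on the plus strand, with the match 9 bases before the start. The Psmb5 stretch is chr14:54618023-54618245 on the minus strand, shown up to 27 bases before the start because the annotation has exon sequence beyond it, with the match 47 bases before the start. Capitals mark the motif, and nothing follows from these matches about which factor acted in these cells.
Psmb6: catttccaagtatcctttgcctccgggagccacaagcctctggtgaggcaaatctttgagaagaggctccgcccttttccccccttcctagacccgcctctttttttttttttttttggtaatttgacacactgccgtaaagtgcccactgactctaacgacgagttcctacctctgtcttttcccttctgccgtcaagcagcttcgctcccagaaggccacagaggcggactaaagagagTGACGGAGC
Psmb5: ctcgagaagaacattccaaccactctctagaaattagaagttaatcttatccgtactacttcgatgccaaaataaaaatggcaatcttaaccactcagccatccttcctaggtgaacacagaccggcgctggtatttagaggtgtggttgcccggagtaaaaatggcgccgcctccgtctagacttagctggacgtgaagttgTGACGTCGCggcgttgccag

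Psma6 encodes alpha1, a structural subunit of the outer ring, and it was the member that differed most between macrophage gates. In Fcgr4-high macrophages it stood at 1007 CPM in CR (3802 UMIs) and 676 CPM in obese VAT (1064 UMIs), against 343 CPM in CR and 209 CPM in obese macrophages of no subtype. The log2 ratio was 1.54 in CR and 1.67 in obese VAT, that is 2.91-fold in CR and 3.18-fold in obese VAT, and stayed called under all 13 alternatives. Psma6 was the only member called higher in Fcgr4-high macrophages in either library, beside 7.92% of measured genes in CR and 7.18% in obese VAT, and 0 members were called lower, beside 6.95% in CR and 4.91% in obese VAT. A single call was a share below the background of higher calls. The median of the standard genes was 0.12 in CR and 0.24 in obese VAT, close to the 0.16 of all measured genes in each library. Other types held much less Psma6, namely 299 CPM in CR and 237 CPM in obese classical monocytes, 267 CPM in CR and 224 CPM in obese lipid-associated macrophages, and 238 CPM in CR and 192 CPM in obese cDC1s. T cells (184 CPM in CR and 176 CPM in obese VAT), B cells (162 CPM in CR and 166 CPM in obese VAT) and fibroblast-gated cells (178 CPM in CR and 171 CPM in obese VAT) were at the low end. No other alpha-ring gene was called there, and Psma6 shared no 98-base word with another transcript in its last 600 bases.

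Psma6 was also set against the number of Fcgr4 UMIs per cell. In macrophages of no subtype with no Fcgr4 UMI it stood at 276 CPM in CR (214 to 349), beside 214 CPM in obese cells (199 to 229), and in those with 4 or more Fcgr4 UMIs at 526 CPM in CR and 260 CPM in obese VAT. Within the Fcgr4-high gate it stood at 653 CPM in CR and 285 CPM in obese cells with 1 to 3 Fcgr4 UMIs, and at 1017 CPM in CR and 736 CPM in obese cells with 4 or more. Psma6 was therefore higher in cells with more Fcgr4 UMIs on both sides of the gate. Fcgr4 was also higher in CR outside macrophages, with 70.5 CPM in CR and 18.6 CPM in obese T cells and 137 CPM in CR and 73.9 CPM in obese B cells. Its part in these results was not tested.

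The promoter at the first annotated start of Psma6 is shown because Psma6 was the standard gene with the widest range. It lies at chr12:55383972-55384221 on the plus strand. It holds CCAAT, the box bound by NF-Y, at 136 bases (as ATTGG, on the other strand) and 29 bases before the start, in capitals. CCAAT was found in 14 of the 36 members beside 33.9% of all promoters.
Psma6: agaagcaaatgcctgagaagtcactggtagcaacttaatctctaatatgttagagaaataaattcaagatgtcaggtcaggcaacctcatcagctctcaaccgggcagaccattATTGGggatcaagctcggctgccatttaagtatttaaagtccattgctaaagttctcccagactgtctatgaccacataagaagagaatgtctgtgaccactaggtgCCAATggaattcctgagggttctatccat

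**Figure D4:**
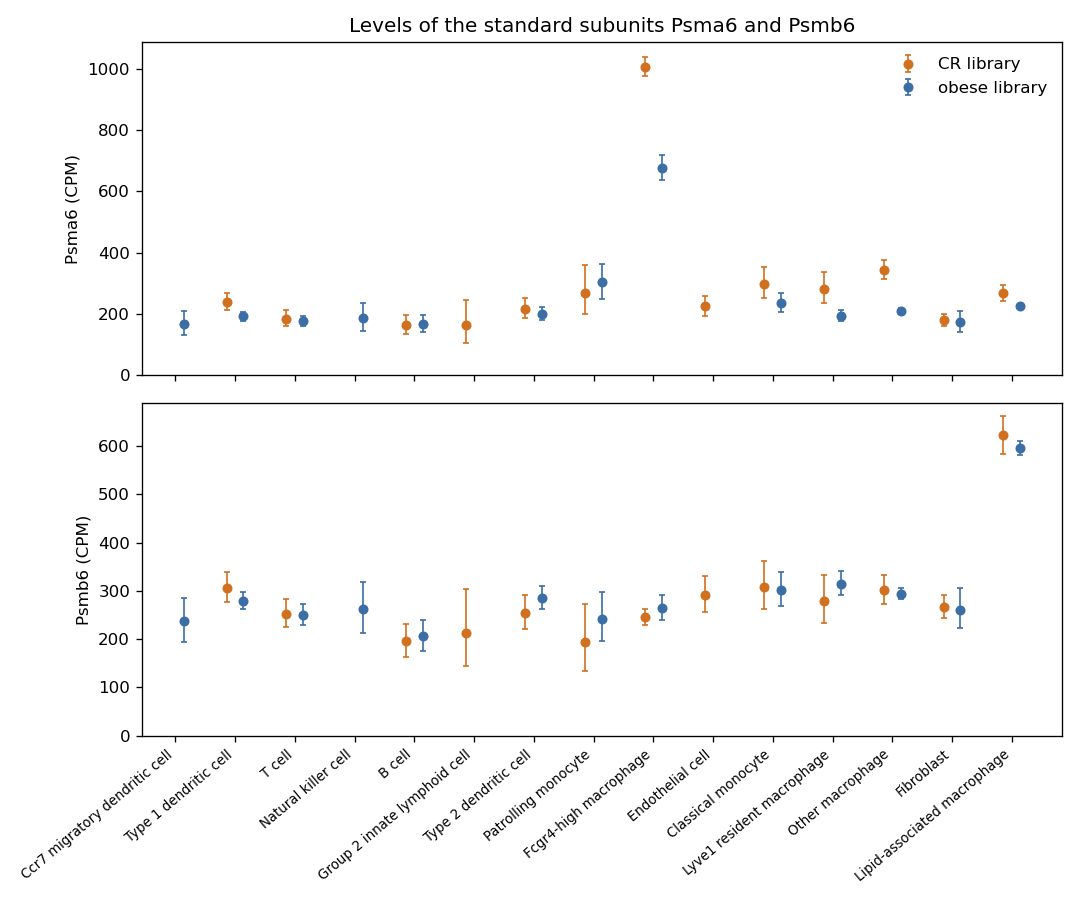
CPM of Psma6 and Psmb6 in each gated type, CR left of obese, with 95% exact Poisson intervals for counting error. Psma6 reached 1007 CPM in CR and 676 CPM in obese Fcgr4-high macrophages, and Psmb6 622 CPM in CR and 595 CPM in obese lipid-associated macrophages.

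The 19S cap genes had log2 ranges over types between 0.53 (Psmd14) and 2.15 (Psmd12) in CR and between 0.36 (Psmc3) and 1.19 (Psmd6) in obese VAT. Among the ATPases, which unfold substrates, the narrowest range over types was that of Psmc3, between 115 CPM and 172 CPM in CR and between 116 CPM and 151 CPM in obese VAT. Psmc1, Psmc2, Psmc4 and Psmc6 reached their CR maximum in lipid-associated macrophages, at 106, 133, 151 and 121 CPM in the same order. For Psmc4, CR patrolling monocytes were close behind at 149 CPM, on 26 UMIs. In obese VAT the maximum was again in lipid-associated macrophages for Psmc2 (116.5 CPM) and Psmc6 (111 CPM). It was in classical monocytes for Psmc1 (90.3 CPM) and Psmc4 (136 CPM). Among the non-ATPase subunits Psmd14, the deubiquitinase that removes ubiquitin at the pore, had the narrowest range, between 77.2 CPM and 114 CPM in CR and between 79.6 CPM and 111 CPM in obese VAT. Psmd12, a lid scaffold subunit, had the widest in CR, between 22.9 CPM in patrolling monocytes, on 4 UMIs, and 119 CPM in lipid-associated macrophages, and its next lowest type was the classical monocyte at 59.0 CPM. The assembly factors Psmd5, Psmd9 and Psmd10 were scarce, with medians over types of at most 48.4 CPM in CR and 42.1 CPM in obese VAT. Psme4, the PA200 activator, had a median of 14.2 CPM in CR and 13.5 CPM in obese VAT and was measured in 0 of 11 types, as was Psmd5. The testis-type alpha subunit Psma8 had 17 UMIs in CR and 59 in obese cells, and the thymus-type beta subunit Psmb11 0 in CR and 1 in obese cells.

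To compare CR with obese VAT, the ratio of each measured member was taken within each of the 11 types, which gave 403 values. CR was called higher in 12 of them (3 for Psma6) and lower in 6. Over all genes and the same types, 8.34% of values were called higher and 3.79% lower. With ratios centred on the median gene of each type 7 were called higher and 11 lower, and with totals that left out ribosomal, mitochondrial and haemoglobin genes 10 higher and 11 lower, so the balance of calls depended on the scaling. The 5 immunoproteasome-associated genes and the standard genes lay mostly on opposite sides of 0. For the 5 genes, 43 of 55 values were below 0, 4 were called lower and 0 higher, and the median log2 ratio was −0.14. For the standard genes, 223 of 342 values were above 0, 12 were called higher and 2 lower, and the median was 0.08. Medians over all measured genes lay between −0.02 and 0.13 by type. This span held the median of the standard genes, and only that of the 5 genes lay outside it. Over the alternatives, the median over cell types ran between −0.0071 and 0.095 for the standard genes. For the summed 5 genes it ran between −0.23 and −0.13.

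Summed over the 5 immunoproteasome-associated genes, the log2 ratio of CR to obese was 0.07 in macrophages of no subtype and 0.03 in cDC1s, with intervals that included 0. In the other 9 types it was below 0. B cells had −0.36 (−0.48 to −0.24), with 1307 CPM in CR and 1680.4 CPM in obese VAT, and fibroblast-gated cells −0.39 (−0.55 to −0.23), with 584 CPM in CR and 766 CPM in obese VAT. T cells had −0.18, classical monocytes −0.22, Lyve1 macrophages −0.21, cDC2s −0.17, lipid-associated macrophages −0.12, patrolling monocytes −0.09 and Fcgr4-high macrophages −0.08. The interval of patrolling monocytes included 0. The sum was also below the sum of the standard genes on the same scale in every type, by 0.01 in patrolling monocytes and 0.54 in fibroblast-gated cells at the extremes.

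The calls among the 5 genes were few and all were lower in CR. Psmb9 fell in B cells, to 152 CPM in CR (105 UMIs) against 266 CPM in obese VAT (220 UMIs), a log2 ratio of −0.79 (−1.16 to −0.47), where 5.08% of genes were called lower, and this call was kept under 11 of 13 alternatives in processing but not with clusters in place of gates or after thinning (−0.29 at the least). It also fell in fibroblast-gated cells (−0.60, background 7.18%), although thinned to 1500 UMIs per cell it had −0.011. Psme2 fell in the same cells (−0.55), with 184 CPM in CR and 271 CPM in obese VAT. Psmb10 fell in classical monocytes, to 195 CPM in CR against 284 CPM in obese VAT (−0.53, background 3.29%), a call lost with clusters or thinning (−0.31 at the least). Psmb8 and Psme1 were called in 0 of 11 types, with values between −0.29 and 0.12 for Psmb8 and between −0.49 and 0.09 for Psme1. Natural killer cells, group 2 innate lymphoid cells, Ccr7 migratory cells and endothelial-gated cells had under 50 cells in 1 of the libraries and were not compared.

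Psma6 was the member most often called. It rose in macrophages of no subtype, to 343 CPM in CR against 209 CPM in obese VAT (0.70, 0.56 to 0.87, background 7.57%), in Fcgr4-high macrophages, to 1007 CPM in CR against 676 CPM in obese VAT (0.57, 0.48 to 0.67, background 7.93%), and in Lyve1 macrophages, to 282 CPM in CR against 193 CPM in obese VAT (0.53, 0.25 to 0.83, background 9.58%). It was not called in lipid-associated macrophages (0.25), T cells (0.07), fibroblast-gated cells (0.05) or B cells (−0.03). With cell types taken from clusters instead of gates, the value was 0.23 in macrophages of no subtype and 0.37 in Fcgr4-high macrophages, both under the limit. The call in Lyve1 macrophages was kept under 6 of 13 alternatives. Pooled over all leukocytes, Psma6 stood at 478 CPM in CR and 229 CPM in obese VAT, a log2 ratio of 1.04. Over the 10 leukocyte types present in both libraries it was 1.09 pooled and 0.41 with CR types weighted by obese UMIs, so the pooled ratio includes the difference in cell type shares. Fcgr4 itself stood at 492 CPM in CR and 203 CPM in obese macrophages of no subtype.

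Beyond Psma6, 0 members were called in Lyve1 macrophages (background 3.59% lower), and 0 were called lower in macrophages of no subtype (2.21%), cDC1s (1.4%) or cDC2s (4.01%), or higher in T cells (10.3%) or B cells (10.9%). The other calls lay mostly in the 19S cap and mostly rested on few UMIs, and among them only that of Psmd11 was kept under all of its 13 alternatives. Psmd1, the large scaffold subunit Rpn2, rose in macrophages of no subtype (0.64; 85.5 CPM in CR and 53.2 CPM in obese VAT) and in cDC1s (0.52; 77.1 CPM in CR and 52.1 CPM in obese VAT, background 8.62%). Psmc4, a 19S ATPase, rose in fibroblast-gated cells (0.63, background 6.45%) and in patrolling monocytes (1.12, background 6.23%), where it had 26 UMIs in CR and 25 in obese cells. Psmd3 rose in the same monocytes (1.12) on 14 UMIs in CR and 13 in obese cells. In classical monocytes (background 8.88%) Psmd11 rose by 0.81 and Psmc2 by 0.53, in cDC2s (background 10.7%) Psmd12 rose by 0.57, and in fibroblast-gated cells Psmd2 rose by 0.55. Psmd13 fell in T cells (−0.53, background 3.63%) and Psma5 fell in B cells (−0.51). In lipid-associated macrophages 0 of 36 measured members were called in either direction, beside 4.83% of genes called higher and 1.18% called lower, although 29 of 31 standard genes were above 0.

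Over all gated leukocytes, members other than the 5 immunoproteasome-associated genes and Psmb5, Psmb6 and Psmb7 were ranked by log2 ratio. The highest after Psma6 were Psmd10 (0.29), Psmd2 (0.28), Psmd12 (0.26) and Psmb3 (0.22). The lowest were Psma5 (−0.06), Psmb4 (−0.06), Psmd3 (−0.03), Psma4 (−0.02) and Psmd8 (0.01). Of the genes left out of this ranking, Psmb6 (−0.31) and Psmb5 (−0.12) lay below all of these. Over the 10 leukocyte types present in both libraries, Psmb6 had −0.32 pooled and 0.03 with CR types weighted by obese UMIs. Psma6 was the only 1 of 37 measured members called, where 12.1% of measured genes were called higher and 5.14% lower. Of the 43 members 6 share over 10% of the 98-base words in their last 600 bases with other transcripts, namely Psme2 and Psmb5, given above, Psmd1 (41.4%), Psma3 (35.6%), Psma5 (32.2%) and Psmb3 (25.1%). Their counts are less certain than those of Psma6, Psmb6, Psmb7, Psmb8, Psmb9 and Psmb10, which share none.

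**Figure D5:**
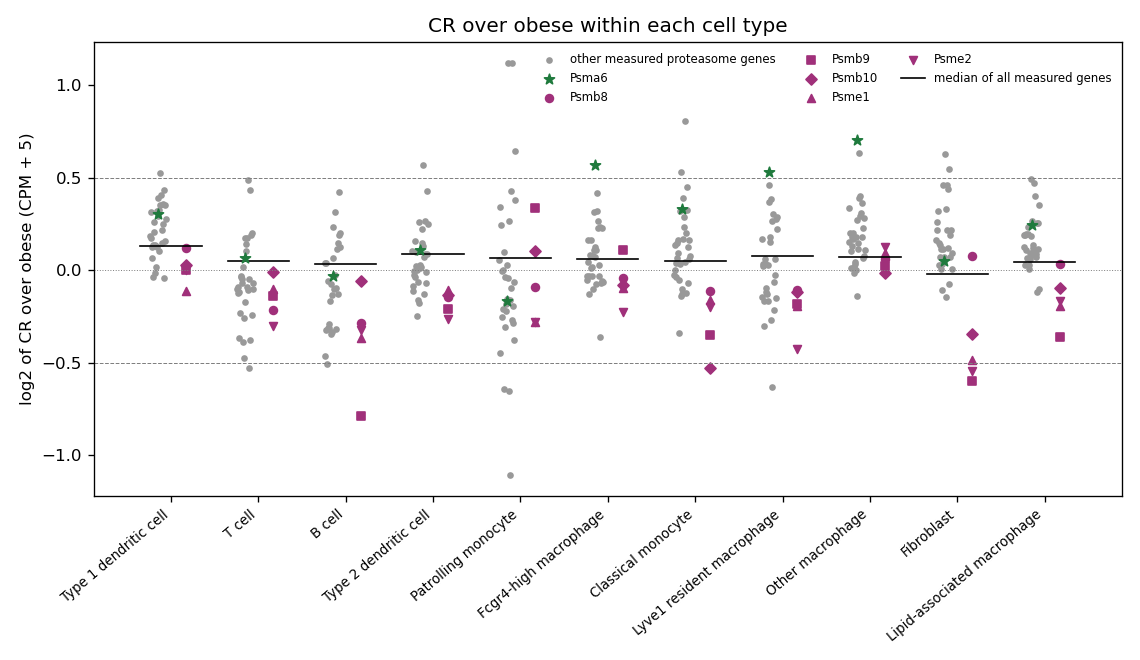
Log2 ratio of CR to obese for each measured member in 11 gated types, with the 5 immunoproteasome-associated genes and the standard genes drawn apart, and 0 marking equal CPM. Of the 5 genes 43 of 55 values lie below 0 and of the standard genes 223 of 342 lie above it, while Psma6 in macrophages of no subtype reaches 0.70.

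Genes that act beside the proteasome were described from lists chosen with earlier results known. For gene-by-type values the share over all genes was 8.34% called higher and 3.79% lower, and over all macrophages pooled 15.4% of measured genes were called higher and 6.98% lower. Pooled macrophage values include the difference in subtype shares between the libraries. For Psma6 the log2 ratio was 1.44 pooled and 0.48 with CR types weighted by obese UMIs. For the summed 5 genes it was 0.20 pooled and −0.05 weighted. The pooled values of the listed genes were not weighted in this way. For the assembly chaperones 0 of 22 gene-by-type values were called, with log2 ratios of CR over obese VAT of 0.17 for Pomp and −0.21 for Psmg4 over all macrophages. For the proteasome-associated proteins 2 of 48 values were called higher and 0 lower, with Uchl5 at 0.24, Txnl1 at 0.23, Adrm1 at 0.16 and Usp14 at 0.04.

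The route that raises proteasome genes when degradation fails runs through Nrf1, the protease Ddi2 and the segregase Vcp. The list for it also held Nfe2l2, the gene of Nrf2. Of its 26 gene-by-type values 5 were called higher and 0 lower, beside 8.34% higher and 3.79% lower over all genes. The calls were of Nfe2l2 in Fcgr4-high macrophages, cDC1s and cDC2s, and of Vcp in classical monocytes and T cells. Over all macrophages pooled the ratios were 0.52 for Ddi2, 0.37 for Nfe2l2 and 0.27 for Vcp. Ddi2 was called there but in no single cell type. For the MHC class I peptide route 5 of 96 values were called higher and 1 lower, with Tap2 at 0.52, Canx at 0.29, Pdia3 at 0.28 and H2-K1 at 0.20 over all macrophages. Tap2 was called over all macrophages pooled but in no single macrophage gate. The median of this list was 0.19 pooled. By gate it was −0.015 in Fcgr4-high, 0.00016 in lipid-associated, 0.19 in Lyve1 and 0.13 in macrophages of no subtype. Tap1 fell in Fcgr4-high macrophages, to 42.4 CPM in CR against 74.4 CPM in obese VAT (−0.74, background 5.85%). For the regulators of the interferon-gamma response 2 of 58 values were called higher and 4 lower, with Irf8 at −0.59, Jak1 at 0.23 and Ifngr2 at −0.16. For the interferon response list 11 of 81 were called higher and 9 lower, with Ly6e at 1.91, Irf7 at 0.79, Isg15 at 0.75 and Ifitm3 at −0.45, so this list had no common direction.

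Genes whose level followed the members across cell types were ranked by Pearson's r of log2(CPM + 5) over 26 type-by-library points among 5862 genes, as a description, since points of a library share its depth. The sum of the 5 immunoproteasome-associated genes was followed most closely by Tap1 (0.92), the neighbour of Psmb8 and Psmb9, which stood at 235 CPM in CR and 197 CPM in obese cDC1s. Cnn2 (0.87), Sub1 (0.84), Net1 (0.84), Dbnl (0.83), Phf11a (0.82), Phf11b (0.81), Slc25a20 (0.80) and St8sia4 (0.79) were also among the nearest 10. Psma6 was followed most closely by BC049352 (0.91), Dusp12 (0.90), Rcbtb2 (0.88), Siglece (0.86) and Fcgr4 (0.85), of which Siglece and Fcgr4 were used as gate markers. Psmb6 was followed by Pcp4l1 (0.85), F7 (0.84), Akr1a1 (0.84), Vdac2 (0.84) and Coro1c (0.83). Prdx1 (0.81) and the vacuolar ATPase gene Atp6v0d2 (0.80), a gate marker of lipid-associated macrophages, came next.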

How the data were processed

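The deposited matrices hold UMI counts per gene and barcode, which the authors made with Cell Ranger 2.2 on mm10 (Seurat is also named in the submitters' processing notes); no other samples' columns were present (0). Barcodes under 200 detected genes were dropped, as were those more than 3 scaled MADs (median absolute deviations) above the library median in mitochondrial share or in log10 UMIs. A cell joined the marker list with the highest score if that score was at least 0.25, the runner-up at most 0.8 of it, and at least 3 markers were detected; a macrophage subtype needed 0.4. These scoring limits were set after the data were seen, and the members and gene lists were chosen with earlier results of these data known; the marker lists include genes the study picked from these libraries. UMIs were summed per gate and library. Ratios carry exact conditional (Clopper-Pearson) 95% intervals and levels exact Poisson intervals; PCR duplicates are removed by the UMIs, and the spread between mice is not covered. No cells were treated as replicates and no test was run. The fitting code was tested on simulated data.

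Genes named with values were the 5 immunoproteasome-associated genes and their counterparts, the 5 highest and 5 lowest other members over leukocytes, the 4 most changed genes of each pathway list in macrophages, and the 10 genes most like the 5. Some genes that this rule or a list names are not reported here. Psma6 and Psmb6 by subtype, 19S genes with a call, and Tap1, Ptprc and Fcgr4 were chosen after their values were seen. Alternatives were no filter, 5 deviations, totals without ribosomal genes, a mean over cells, thinning to 1500 UMIs, clusters in place of gates, pseudocounts of 1 and 20 CPM, no filter on low counts, leaving out the top 5% of cells by UMIs, a stricter gate of 4 markers, centring on the median gene, and, added after seeing the data, leaving out cells near a limit. Clusters (Leiden, scikit-learn 1.9.0 and leidenalg 0.10.2) gave 82.9% of 6676 cells named both ways the same name. Positions are from GENCODE vM21 and promoters from RefSeq.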

Additional observations from a re-analysis of the deposited data

How the results depend on the processing

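No paired analysis was possible because each group is 1 library and no replicate numbers pair cells across groups. Over 13 alternatives and 137 results, 1215 of 1498 recomputed values stayed close to the reported value (mostly within its counting interval) and 277 moved further. The other 6 changed sign from a reported value whose interval left out 0, and the cause was not tested. These 6 were all medians of the standard genes, CR over obese: lipid-associated macrophages −0.034 without the cell filter (0.12 reported), Fcgr4-high macrophages −0.026 thinned, −0.023 with clusters and −0.0071 centred on the median gene (0.06 reported), and B cells 0.024 with clusters and 0.0077 without the highest 5% of UMI totals (−0.09 reported). Sign changes of values whose interval or spread over types included 0 are not among the 6. For example, the median of the standard genes over the cell types, CR over obese, ran between −0.0071 and 0.095. Psma6, CR over obese, was 0.43 thinned and 0.37 with clusters in Fcgr4-high macrophages (0.57), and 0.56 without the cell filter and 0.23 with clusters in macrophages of no subtype (0.70). Psma6 in Fcgr4-high macrophages over macrophages of no subtype was 1.40 by per-cell mean, 2.22 with clusters and 1.38 centred in CR (1.54), and 2.08 with clusters, 1.51 centred and 1.82 without cells near a limit in obese VAT (1.67). Psmb6 in lipid-associated macrophages over macrophages of no subtype was 0.86 without the cell filter in CR (1.03), and 0.94 by per-cell mean, 0.87 thinned, 0.93 centred and 1.10 without cells near a limit in obese VAT (1.01). The obese immunoproteasome ratio of lipid-associated macrophages minus macrophages of no subtype was −1.03 by per-cell mean, −0.93 thinned, −1.40 with clusters and −1.32 without cells near a limit (−1.17), and that of cDC1s minus cDC2s was 0.95 thinned (0.79). Members called lower in CR numbered 11 with totals without ribosomal genes, 10 thinned, 3 without the highest 5%, 2 with a pseudocount of 20 CPM and 11 centred (6), and members called higher numbered 7 centred (12), 14 being the most under any alternative. Values of the 5 immunoproteasome-associated genes below 0 made up 89.1% without the cell filter, with clusters and centred (78.2%), and 69.1% at the least, when thinned. The share of leukocyte UMIs from members in CR (0.822%) was 0.784% without the cell filter, 0.814% at 5 deviations, 1.04% with totals without ribosomal genes, 0.793% by per-cell mean, 0.757% thinned, 0.804% with clusters, 0.806% without the highest 5% and 0.830% without cells near a limit, and in obese VAT (0.750%) it was 0.741%, 0.747%, 0.944%, 0.721%, 0.722%, 0.739%, 0.729% and 0.762% under the same alternatives. Under every one of these the pooled CR share was the higher. All of them kept the pooling over leukocyte types, whose makeup differed between the libraries, and B cells had the lower share in CR. Over the 10 leukocyte types present in both libraries, CR types were also weighted by obese UMIs. The log2 ratio of CR to obese was then 0.12 for the summed standard genes (0.14 pooled) and −0.06 for the summed 5 genes (0.09 pooled). Types with 50 to 64 CR cells set the depth limit for single genes.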

Other observations

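Macrophages with at least 3 detected cycling markers (83 CR and 272 obese cells) were set against those with none (589 CR and 1319 obese cells). The summed standard proteasome genes were higher in the cycling cells, with a log2 ratio of 0.26 in CR (0.22 to 0.30), beside 0.32 in obese cells (0.29 to 0.34), while the 5 immunoproteasome-associated genes had 0.00 in CR and −0.24 in obese VAT. Of the standard genes 5 of 33 were called higher in CR, beside 17.7% of all measured genes, and 8 of 31 in obese VAT, beside 17.9%. Their median was 0.37 in CR and 0.32 in obese VAT, beside 0.11 in CR and 0.15 in obese VAT over all measured genes. Psmb10 had −0.50 in CR and −0.62 in obese VAT. Cycling cells were deeper, with a median of 10090 UMIs in CR and 12047 in obese VAT. Cells without markers had 5003 in CR and 6254 in obese VAT. Cycling cells and cells without markers were not matched by macrophage subtype. Lipid-associated macrophages over macrophages of no subtype had a standard-gene median of 0.31 in CR and 0.30 in obese VAT. Psmb10 in that comparison had −0.37 in CR and −0.29 in obese VAT. The parts of depth and of subtype in the values of cycling cells were not tested.

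Psme3, the activator of nuclear proteasomes, was highest in the erythroid gate, with 110 CPM in CR and 66.4 CPM in obese VAT, although the other members were at a small fraction of their leukocyte level there. Psmb8 in the same gate stood at 24.8 CPM in CR and 80.4 CPM in obese VAT.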
